A study of Chimonocalamus delicatus with 27 samples.

Results

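The oldest stem and the shoot, the ends of culm life sampled in the growth stages of Chimonocalamus delicatus, a fragrant bamboo of Yunnan, were compared across all genes. The comparison used 6 of the 27 libraries of the series: 3 libraries of the 3-year stem and 3 of the bamboo shoot, chosen by their labels alone. The series asked how terpene genes differ with culm age and plant part, and its growth stage set also holds stems of 0.5, 1 and 2 years, which are given here as levels only. The labels name no genotype beyond a library name, no treatment, no internode and no season, and they do not say whether plants were pooled or whether the libraries of a group came from separate plants. The p-values therefore rest on differences among libraries of a group that may be technical only.

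A bamboo shoot grows into a culm by division and expansion of cells in intercalary meristems of its internodes. The culm has no cambium, so it gains neither height nor girth once elongation ends, while the walls of its fibres and vessels thicken and lignify. Terpenoids, the class to which many plant scents belong, are built from isopentenyl diphosphate and its isomer, which come from the mevalonate pathway in the cytosol and the methylerythritol phosphate (MEP) pathway in plastids, and terpene synthases turn the prenyl diphosphates made from them into the final skeletons.

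Each library held expected counts (read counts that the authors estimated per gene) and FPKM (fragments scaled to transcript length and to the library's total). Totals of expected counts were 12336896, 9353995 and 8615092 in the 3-year stem libraries, against 12288680, 9315107 and 10598893 in the shoot libraries. An FPKM of 1 or more was reached by 22692, 23079 and 22540 genes in the 3-year stem and by 26287, 25503 and 27838 in the shoot. The biological coefficient of variation, the spread between replicates beyond counting error, was 24.3% in the 3-year stem and 44.2% in the shoot. Shoot library 3 stood apart. Among the 19846 genes whose highest shoot level was 5 FPKM or more, 9.07% exceeded the level of both other shoot libraries more than 2-fold in it, while 2.90% did so in shoot library 1 and 1.68% in shoot library 2. Its sums were 1579 FPKM for light harvesting and photosystem genes, 673 FPKM for secondary wall cellulose synthases and 18198 FPKM for cytosolic ribosomal proteins. The corresponding sums in shoot libraries 1 and 2 were 614 and 393, 211 and 238, and 30354 and 27557 FPKM. Counts that move by over 1.5 times without it are given both ways.

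Expression differed between the 3-year stem and the shoot in most genes. Of 27239 genes tested out of 55972, edgeR's quasi-likelihood test called 7611 higher (27.9%) and 8526 lower (31.3%) in the 3-year stem at an adjusted p under 0.05, or 59.2% in all. The 3 libraries of 1 group lay wholly above or below those of the other in 72.1% of the tested genes. Changes of 4-fold or more were called in 3956 genes that rose and 4678 that fell, and changes of 64-fold or more in 627 and 1346. Read as switches, 181 genes were at 5 FPKM or more in all 3 stem libraries and under 0.5 FPKM in all 3 shoot libraries, and 792 genes showed the opposite. These are bulk samples, so fewer cells of a type and less RNA per cell cannot be told apart in any of these changes.

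The split between rises and falls depended on the scale. The median log2 change of all genes was -0.08 with edgeR's scaling of the counts and -0.53 with limma on log2(FPKM + 1), which scales to the total only, and of the called genes 47.2% were higher with edgeR and 30.7% with limma. Medians of gene lists are therefore given beside the -0.08 of all genes, with the limma value on the FPKM scale, to be read against -0.53, where the sign differs. Where the share of higher calls within a list moved by over 10 percentage points with limma, its counts are given too. Below, ± is an approximate standard error, the size of the log2 change divided by the square root of edgeR's F statistic. Each adjusted p is from edgeR, except in ranges over the 16 alternative settings, which also hold DESeq2 and limma fits. A level is an FPKM value given for libraries 1, 2 and 3 in turn. Gene symbols and descriptions were transferred from related sequences of other plants, so a name marks a best match, and genes of 1 family can share reads. The lists were built from words in those descriptions. Wherever edgeR called no member of a list in 1 direction, no member had an unadjusted p under 0.05 in that direction and DESeq2 and limma called none, except that limma called 3 MEP pathway genes lower.

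**Figure D1:**
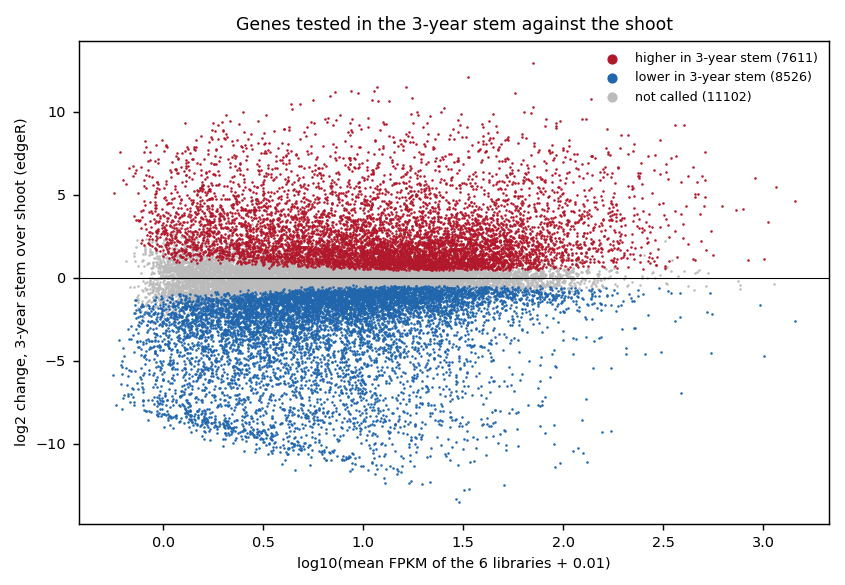
Log2 change of each of the 27239 tested genes (3-year stem over shoot, edgeR) against its mean level over the 6 libraries as log10(FPKM + 0.01), 1 point per gene. Red points are the 7611 genes called higher and blue points the 8526 called lower in the 3-year stem, and both directions hold genes at all levels.

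The 10 largest rises were taken among called genes with a symbol, a description, 10 FPKM or more and groups that did not overlap. Ranked on the scale of log2(mean FPKM + 1), they included genes of stress response, abscisic acid synthesis and vacuolar transport. ERF109 (PH02Gene23495), an ethylene response factor that in Arabidopsis is induced by reactive oxygen and jasmonate, stood at 206, 190.3 and 383 FPKM in the 3-year stem, against 0.38, 0.836 and 0.294 FPKM in the shoot (log2 change 9.59 ± 0.56, adjusted p = 4.72e-05). NCED4 (PH02Gene08292), described as viviparous-14, the maize enzyme that cleaves carotenoids in the committed step of abscisic acid synthesis, stood at 488, 361 and 417 FPKM in the 3-year stem, against 1.45, 1.41 and 2.00 FPKM in the shoot (log2 change 8.62 ± 0.33, adjusted p = 3.26e-05). AVP1 (PH02Gene19952), a proton pump of the vacuolar membrane driven by pyrophosphate, had 185, 155 and 211 FPKM in the 3-year stem, against 0.297, 0.587 and 0.55 FPKM in the shoot (log2 change 9.18 ± 0.40, adjusted p = 3.44e-05). In these 3 genes the stem libraries were far above every shoot library. AZF1 (PH02Gene26291), a zinc finger protein of the type that in Arabidopsis represses genes under drought and salt stress, had 94.7, 197 and 129.8 FPKM in the 3-year stem, against 0.161, 0.107 and 0.187 FPKM in the shoot (log2 change 10.28 ± 0.44, adjusted p = 3.44e-05). DIVARICATA (PH02Gene45861), a MYB-related transcription factor named after a snapdragon flower gene, had 287, 351 and 349 FPKM in the 3-year stem, against 1.29, 0.905 and 0.618 FPKM in the shoot (log2 change 8.998 ± 0.37, adjusted p = 3.26e-05). P4H7 (PH02Gene36191), a prolyl hydroxylase, had 139, 189 and 162 FPKM in the 3-year stem, against 0.147, 0.485 and 0.341 FPKM in the shoot (log2 change 9.55 ± 0.39, adjusted p = 3.26e-05). That the groups did not overlap in any of these genes was set by the rule that chose them. The remaining genes of the 10 largest rises were HSPRO1, WRKY62, CDKF-2 and DTX49, and HSPRO1 differed most among them, by 7.29 on that scale.

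The 10 largest falls on that scale, which the rule also limited to groups without overlap, included genes of wall loosening, microtubules and glycoside metabolism. EXPB3 (PH02Gene02936), a beta-expansin that loosens cell walls, had 0.061, 0.081 and 0.088 FPKM in the 3-year stem, against 288, 331 and 167 FPKM in the shoot (3488-fold lower per total count, 95% counting interval 1193 to 16918, from 3 counts in all in the 3-year stem, adjusted p = 3.44e-05). TUBB4 (PH02Gene38071), a beta-tubulin of the microtubules, had 4.76, 5.04 and 2.95 FPKM in the 3-year stem, against 484, 1476 and 348 FPKM in the shoot (log2 change -6.95 ± 0.73, adjusted p = 0.00023). BGLU8 (PH02Gene09960), a beta-glucosidase, had 0.353, 0.57 and 0.438 FPKM in the 3-year stem, against 326, 292 and 125 FPKM in the shoot (log2 change -8.53 ± 0.55, adjusted p = 5.48e-05). All shoot libraries were far above all stem libraries, and shoot library 3 was the lowest shoot library in each of these genes. SIK1 (PH02Gene13033), described as the receptor kinase ERL1 that in Arabidopsis acts in stomatal patterning, had 0.205, 0.151 and 0.262 FPKM in the 3-year stem, against 166, 202 and 89.1 FPKM in the shoot (log2 change -8.95 ± 0.52, adjusted p = 4.64e-05). IRL (PH02Gene36096), an isoflavone reductase homologue, had 0.127, 0.37 and 0 FPKM in the 3-year stem, against 103, 196 and 184 FPKM in the shoot (log2 change -9.37 ± 0.61, adjusted p = 5.58e-05). In both, as in all 10, the lack of overlap was set by the rule. The others were a TUBB4 gene (PH02Gene16044), BGLU28, APS1, SOT13 and MGS1, with differences of -7.85, -7.72, -7.52, -7.34 and -7.15 on that scale.

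**Figure D2:**
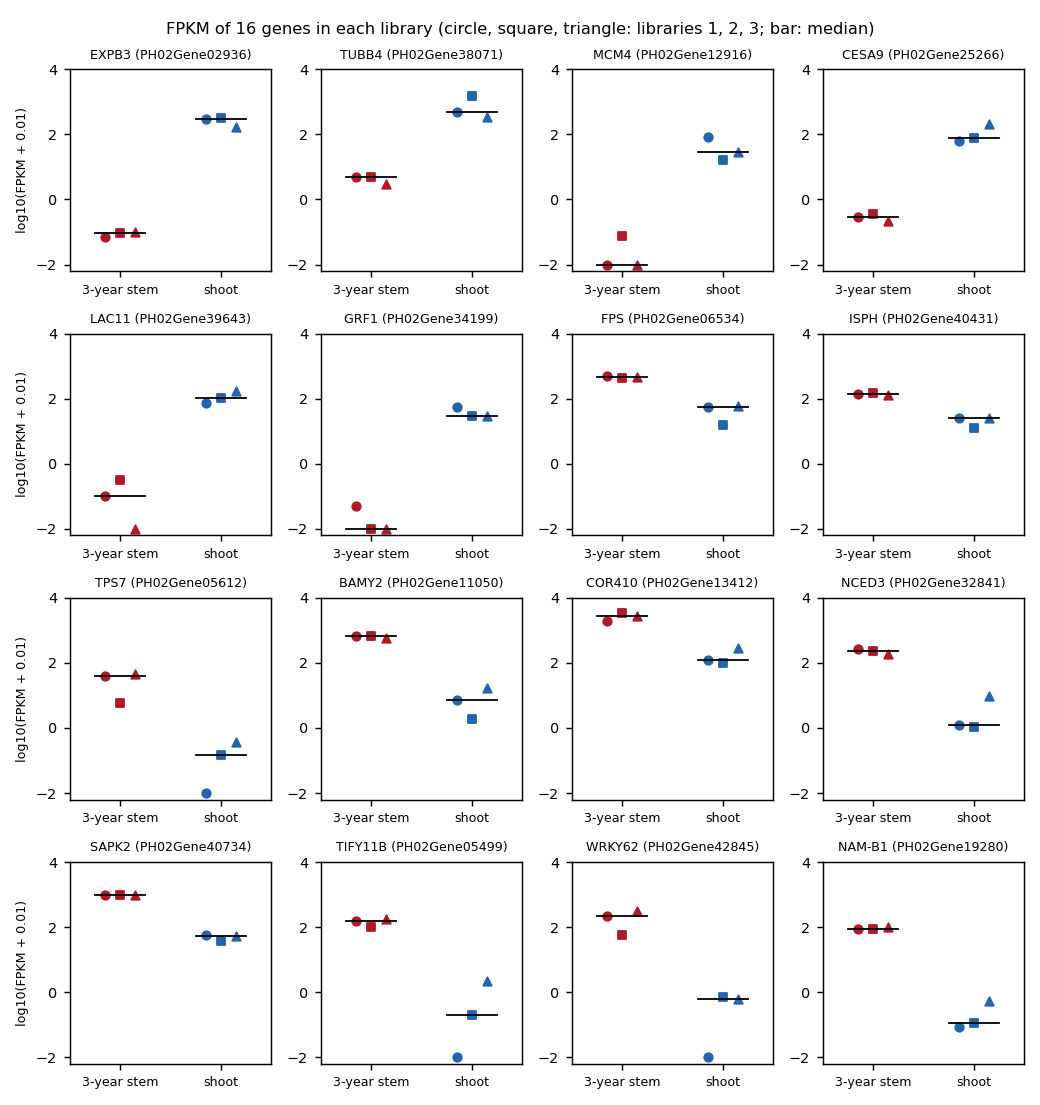
Level of 16 genes in each of the 6 libraries, as log10(FPKM + 0.01), so that 0 FPKM is drawn at -2, with the 3-year stem left of the shoot in each panel. Marker shapes give libraries 1, 2 and 3 and the bar is the median. The genes were picked from those named in the text, some by a rule that required groups without overlap. The groups are separate in every panel, as in 72.1% of the tested genes.

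Most tested genes of mitosis and of DNA replication fell in the 3-year stem, while histones were mixed. Of 119 tested genes of mitosis and cytokinesis, 82 fell (68.9%, against 31.3% of all genes) and 7 rose, with a median log2 change of -2.16. Of 51 tested genes of DNA replication, 32 fell (62.7%) and 3 rose (median -1.43). Of 55 tested histones 25 fell (45.5%) and 12 rose (median -0.44), and limma called 7 higher and 28 lower. Their sums overlapped, with 1244, 1754 and 1363 FPKM in the 3-year stem libraries, against 2389, 1007.5 and 1755.5 FPKM in the shoot libraries. The most abundant histone, H2B.2 (PH02Gene23881), rose (log2 change 1.70 ± 0.48, adjusted p = 0.0166), a call lost with limma and without stem library 2. MCM4 (PH02Gene12916), a subunit of the helicase that unwinds DNA for replication, had 0, 0.066 and 0 FPKM in the 3-year stem, against 84.2, 16.8 and 29.3 FPKM in the shoot (2286-fold lower per total count, 95% counting interval 633 to 18885, from 2 counts in all in the 3-year stem, adjusted p = 0.000226). KIN14C (PH02Gene15128), a kinesin motor, had 0.127, 0.134 and 0.109 FPKM in the 3-year stem, against 86.8, 98.6 and 62.2 FPKM in the shoot (log2 change -8.78 ± 0.36, adjusted p = 3.26e-05). The stem libraries were at or near 0 in both genes and the groups did not overlap. MAP65-6 (PH02Gene25122), a microtubule cross-linker and the most abundant member of the mitosis list, went against the list with 202, 153 and 212 FPKM in the 3-year stem, against 6.87, 7.43 and 6.12 FPKM in the shoot (log2 change 5.38 ± 0.29, adjusted p = 4.16e-05). RFC3 (PH02Gene33957), a clamp loader subunit, also rose, with 6.14, 5.05 and 5.48 FPKM in the 3-year stem, against 1.08, 1.24 and 1.26 FPKM in the shoot (log2 change 2.80 ± 0.30, adjusted p = 0.000237). In both of these all stem libraries were above all shoot libraries. Summed over the list, DNA replication genes reached 211, 245 and 207 FPKM in the 3-year stem libraries, against 1374, 494 and 581 FPKM in the shoot libraries, with shoot library 1 the highest.

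Most tested growth-regulating, TCP and homeobox transcription factors fell as well. Of 52 tested growth-regulating factors (GRF), TCP and homeobox genes, 34 fell (65.4%) and 6 rose, with a median log2 change of -3.09. The rises were 3 without stem library 3 or without shoot library 2. GRF1 (PH02Gene34199), of the family that promotes cell proliferation in leaves and stems, had 0.042, 0 and 0 FPKM in the 3-year stem, against 54.4, 28.5 and 28.4 FPKM in the shoot (2268-fold lower per total count, 95% counting interval 407 to 89620.0, from 1 count in all in the 3-year stem, adjusted p = 5.48e-05). It was at or near 0 in all 3 stem libraries. OSH15 (PH02Gene32186), a KNOX homeobox gene of shoot meristems and internodes in rice and the most abundant of the list, had 32.2, 57.2 and 35.1 FPKM in the 3-year stem, against 110.0, 93.9 and 64.5 FPKM in the shoot (log2 change -0.55 ± 0.30, adjusted p = 0.146). Its shoot libraries lay above its stem libraries, but it did not pass the test, and its adjusted p was 0.0256 without shoot library 3 and 0.00964 to 0.354 over the 16 alternative settings. HOS59 (PH02Gene13867), another KNOX gene, rose, with 82.9, 74.1 and 70.04 FPKM in the 3-year stem, against 7.14, 6.91 and 19.1 FPKM in the shoot (log2 change 3.39 ± 0.40, adjusted p = 0.000389). All 3 stem libraries were above all 3 shoot libraries in it.

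Most genes that loosen growing walls fell in the 3-year stem. Of 53 tested expansins and xyloglucan endotransglucosylases, which cut and rejoin or loosen wall polymers during growth, 41 fell (77.4%) and 4 rose, with 7 rises when shoot library 3 was left out. The median log2 change was -5.92 with genes at 0 counts set to their bound of 3 counts. Summed over the list the level was 295, 435 and 323 FPKM in the 3-year stem libraries, against 1829, 2167 and 1101 FPKM in the shoot libraries. EXLA2 (PH02Gene38031), an expansin-like A gene, rose most, with 29.6, 50.3 and 31.2 FPKM in the 3-year stem, against 4.21, 1.52 and 2.49 FPKM in the shoot (log2 change 4.31 ± 0.41, adjusted p = 0.000167). The most abundant member, XTH (PH02Gene43877), had 53.5, 164 and 81.2 FPKM in the 3-year stem, against 203, 224 and 114 FPKM in the shoot and overlapping groups (log2 change -0.31 ± 0.43, adjusted p = 0.558). Of 46 tested pectin modifying enzymes 26 fell (56.5%, against 31.3% of all genes) and 6 rose (13.0%, median -2.39). The polygalacturonase At1g80170 (PH02Gene21110), which cuts pectin, had 0.591, 0.341 and 0.476 FPKM in the 3-year stem, against 356, 22.8 and 65.8 FPKM in the shoot (log2 change -7.69 ± 1.19, adjusted p = 0.00117). Shoot library 1 was the highest by far, and the groups did not overlap.

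Cellulose synthases of the secondary wall fell to low levels. All 6 genes with the symbols CESA4, CESA7 and CESA9, the subunits that in rice make the cellulose of secondary walls, fell, with a median log2 change of -6.97. CESA9 (PH02Gene25266) had 0.288, 0.351 and 0.208 FPKM in the 3-year stem, against 63.4, 77.1 and 215 FPKM in the shoot (log2 change -8.10 ± 0.62, adjusted p = 8.33e-05). CESA7 (PH02Gene24001) had 0.248, 0.396 and 0.164 FPKM in the 3-year stem, against 35.5, 34.7 and 106 FPKM in the shoot (log2 change -7.14 ± 0.60, adjusted p = 0.000114). CESA4 (PH02Gene14733) had 4.16, 1.19 and 0.768 FPKM in the 3-year stem, against 46.7, 51.2 and 156 FPKM in the shoot (log2 change -4.74 ± 0.78, adjusted p = 0.00159). In each of these the stem libraries were all below the shoot libraries and shoot library 3 was the highest. CESA7 and CESA4 are shown beside CESA9, which the rule named, after their values were seen. Among the 17 tested cellulose synthases with other CESA symbols 15 fell (88.2%, against 31.3% of all genes) and none rose, with a median of -1.71. CESA8 (PH02Gene45992), the most abundant, had 36.4, 26.3 and 26.1 FPKM in the 3-year stem, against 175, 337 and 230.0 FPKM in the shoot (log2 change -2.49 ± 0.33, adjusted p = 0.000594). The CESA4, CESA7 and CESA9 genes together had a summed level of 5.05, 3.18 and 1.48 FPKM in the 3-year stem libraries, against 211, 238 and 673 FPKM in the shoot libraries.

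Laccases, which oxidise monolignols to lignin in the wall, fell in 16 of 18 tested genes (88.9%), with a median log2 change of -7.05 at the bound. LAC11 (PH02Gene39643) had 0.094, 0.309 and 0 FPKM in the 3-year stem, against 73.1, 103 and 176 FPKM in the shoot (log2 change -9.13 ± 0.68, adjusted p = 7.94e-05). The groups were far apart and shoot library 3 was the highest. LAC7 (PH02Gene20641) was the only call in the other direction, with 5.01, 32.0 and 13.0 FPKM in the 3-year stem, against 1.08, 1.18 and 7.72 FPKM in the shoot (log2 change 2.92 ± 0.91, adjusted p = 0.0254). Its groups overlapped, and the call was lost without stem library 2 or 3 or without shoot library 1 or 2 (adjusted p = 0.0942, 0.0535, 0.0705 and 0.0726, in a range of 0.00097 to 0.0942 over the 16 alternatives), while without shoot library 3 there were 2 such calls. Of 65 tested class III peroxidases, which also couple monolignols, 46 fell (70.8%, against 31.3% of all genes) and 9 rose (13.8%, median -3.25). PER72 (PH02Gene22856), the most abundant of them, had 0.83, 0.644 and 0.908 FPKM in the 3-year stem, against 98.2, 109 and 57.4 FPKM in the shoot (log2 change -6.21 ± 0.39, adjusted p = 5.31e-05). In PER72 no stem library reached 1 FPKM.

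Most of the other wall proteins and xylan genes also fell. Of 36 tested fasciclin-like arabinogalactan and COBRA-like proteins, which sit at the plasma membrane and bear on wall deposition, 30 fell (83.3%) and 3 rose, with a median of -5.97 at the bound. FLA13 (PH02Gene50585) was listed at 0 in all 3 stem libraries and had 50.7, 215 and 37.5 FPKM in the shoot, which puts it at least 748-fold lower in the 3-year stem (adjusted p = 0.00177), taking 3 counts over the group as the floor. BC1L6 (PH02Gene20375), a COBRA-like gene, rose, with 100.8, 136 and 113 FPKM in the 3-year stem, against 6.76, 1.77 and 13.4 FPKM in the shoot (log2 change 4.61 ± 0.64, adjusted p = 0.000714). FLA13 was thus high in every shoot library and BC1L6 in every stem library. Of 90 tested genes of xylan synthesis and acetylation 59 fell (65.6%, against 31.3% of all genes) and 15 rose (16.7%, median -2.13). TBL33 (PH02Gene36297), of the family that acetylates xylan, had 0.068, 0.09 and 0 FPKM in the 3-year stem, against 82.6, 101.4 and 97.6 FPKM in the shoot (1669-fold lower per total count, 95% counting interval 462 to 13783, from 2 counts in all in the 3-year stem, adjusted p = 3.26e-05). IRX9L (PH02Gene38222), of a family of xylan backbone enzymes and the most abundant of the list, had 76.5, 79.8 and 86.0 FPKM in the 3-year stem, against 14.7, 10.8 and 30.3 FPKM in the shoot (log2 change 2.73 ± 0.36, adjusted p = 0.000622). Thus TBL33 was high in all shoot libraries and IRX9L in all stem libraries.

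Genes of monolignol synthesis, which makes the building blocks of lignin, were called in each direction about as often as all genes. Of 77 tested, 24 rose (31.2%) and 26 fell (33.8%), near the 27.9% and 31.3% of all genes, with a median of 0.09, or -0.21 on the FPKM scale, where the sign turned. PAL (PH02Gene27016), phenylalanine ammonia-lyase at the entry of the pathway and its most abundant gene, fell, with 34.2, 28.8 and 22.3 FPKM in the 3-year stem, against 176, 331 and 587 FPKM in the shoot (log2 change -3.08 ± 0.44, adjusted p = 0.000826). CCR1 (PH02Gene33787), a cinnamoyl-CoA reductase of the last steps, rose, with 30.2, 48.3 and 26.9 FPKM in the 3-year stem, against 0.146, 0.064 and 0 FPKM in the shoot (log2 change 9.31 ± 0.56, adjusted p = 4.95e-05). Another CCR1 gene (PH02Gene04803), chosen after its values were seen, had 31.1, 43.0 and 41.4 FPKM in the 3-year stem, against 1.95, 2.06 and 1.76 FPKM in the shoot (log2 change 4.90 ± 0.24, adjusted p = 3.77e-05). PAL was high in all shoot libraries and both reductases were high in all stem libraries. The summed level of the list was 1268, 1155 and 1159 FPKM in the 3-year stem libraries, against 1474, 1642 and 2806 FPKM in the shoot libraries, with shoot library 3 above the rest.

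Genes of protein synthesis fell more often than they rose, and how many were called depended on the libraries and on the scale. Of 327 tested cytosolic ribosomal proteins 140 fell (42.8%) and 1 rose, with a median of -0.72 and groups that did not overlap in 286 of them (72.1% of all genes). The number that fell was 70 without stem library 2, 52 without stem library 3, 87 without shoot library 1 and 248 without shoot library 3, and limma called 1 higher and 289 lower. Their summed level was 11524, 11447 and 8893 FPKM in the 3-year stem libraries, against 30354, 27557 and 18198 FPKM in the shoot libraries. RPL24 (PH02Gene05563), of the large subunit, had 7.15, 4.19 and 5.97 FPKM in the 3-year stem, against 81.8, 75.2 and 24.2 FPKM in the shoot (log2 change -2.81 ± 0.51, adjusted p = 0.00248). RPL5A (PH02Gene29817), the most abundant of the list, had 361, 347 and 290.4 FPKM in the 3-year stem, against 889, 719.6 and 494 FPKM in the shoot and did not pass the test (log2 change -0.50 ± 0.28, adjusted p = 0.163), with an adjusted p of 0.0167 without shoot library 3 and of 0.0162 to 0.376 over the 16 alternatives. In both genes every shoot library was above every stem library. The gene that rose, At1g29970 (PH02Gene31855), is described as an L18a-like protein and had 8.601, 9.24 and 9.79 FPKM in the 3-year stem, against 2.42, 3.81 and 4.20 FPKM in the shoot (log2 change 2.00 ± 0.31, adjusted p = 0.00118). Of 152 tested genes of ribosome biogenesis 68 fell (44.7%, against 31.3% of all genes) and 10 rose (6.6%, median -0.70). The rises were 6 without shoot library 2, and limma called 5 higher and 115 lower. CBF5 (PH02Gene07724), the pseudouridine synthase of ribosomal RNA, had 0.777, 1.33 and 0.72 FPKM in the 3-year stem, against 26.4, 15.3 and 13.8 FPKM in the shoot (log2 change -3.73 ± 0.39, adjusted p = 0.000236). It was low in all stem libraries.

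How genes of protein breakdown split depended on the scale. Of 116 tested proteasome genes 22 rose (19.0%) and 21 fell (18.1%), both below the 27.9% and 31.3% of all genes. Their median was 0.08 (-0.47 on the FPKM scale, where the sign turned), and the falls were 11 without stem library 1 and 9 without stem library 3. On the FPKM scale limma called 9 higher and 51 lower. Of 40 tested autophagy genes 20 rose (50%, against 27.9% of all genes) and 4 fell (median 0.64), while limma called 10 higher and 8 lower (median 0.06). ATG8C (PH02Gene01840), a small ubiquitin-like protein of the autophagosome membrane, had 33.6, 61.8 and 55.7 FPKM in the 3-year stem, against 11.2, 11.9 and 19.8 FPKM in the shoot (log2 change 2.41 ± 0.31, adjusted p = 0.000567). UBC28 (PH02Gene43980), a ubiquitin-conjugating enzyme and 1 of the 8 most abundant genes of the 3-year stem, had 1076, 1210.1 and 1190.0 FPKM in the 3-year stem, against 86.0, 77.1 and 91.4 FPKM in the shoot (log2 change 4.36 ± 0.23, adjusted p = 4.16e-05). The stem libraries were higher in both without overlap. PH02Gene01842, described as autophagy-related protein 23, fell, with 3.185, 2.83 and 2.54 FPKM in the 3-year stem, against 90.9, 86.5 and 48.5 FPKM in the shoot (log2 change -4.15 ± 0.33, adjusted p = 9.44e-05). XCP2 (PH02Gene07450), a papain-like protease known from xylem cell death in Arabidopsis, fell, with 0, 0.169 and 0.183 FPKM in the 3-year stem, against 35.0, 19.6 and 14.4 FPKM in the shoot (log2 change -7.09 ± 0.73, adjusted p = 0.000216). It was highest in shoot library 1.

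On the way to terpenoids, most genes of the plastid pathway rose in the 3-year stem. Of 13 tested genes of the MEP pathway 9 rose (69.2%, against 27.9% of all genes) and none fell with the 6 libraries, while 1 fell without stem library 1, and the median log2 change was 1.69 (limma called 9 higher and 3 lower). CLA1 (PH02Gene22727), 1-deoxy-D-xylulose-5-phosphate synthase at the entry of the pathway, had 67.9, 72.2 and 62.9 FPKM in the 3-year stem, against 15.2, 4.89 and 33.9 FPKM in the shoot (log2 change 2.53 ± 0.58, adjusted p = 0.00709). DXR (PH02Gene19646), the reductoisomerase of the next step, had 66.3, 79.1 and 61.1 FPKM in the 3-year stem, against 9.59, 8.66 and 20.6 FPKM in the shoot (log2 change 3.01 ± 0.34, adjusted p = 0.000296). ISPH (PH02Gene40431), the reductase of the last step, had 143, 144 and 131 FPKM in the 3-year stem, against 24.98, 12.1 and 25.7 FPKM in the shoot (log2 change 3.33 ± 0.31, adjusted p = 0.000148). Every stem library was above every shoot library in the 3 genes, of which CLA1 and DXR were chosen after their values were seen. The summed level of the pathway was 595, 540.5 and 503 FPKM in the 3-year stem libraries, against 178, 139 and 281 FPKM in the shoot libraries.

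In the cytosolic mevalonate pathway the share of genes that fell was near that of all genes. Of 18 tested genes 3 rose (16.7%) and 6 fell (33.3%), beside 27.9% and 31.3% of all genes, with a median of -0.38, and limma called 1 higher and 10 lower. HMGS (PH02Gene21584), hydroxymethylglutaryl-CoA synthase and the most abundant gene of the pathway, rose, with 64.7, 59.0 and 75.5 FPKM in the 3-year stem, against 35.9, 22.3 and 57.4 FPKM in the shoot (log2 change 1.40 ± 0.32, adjusted p = 0.00745). HMGR (PH02Gene25183), the reductase of the rate-limiting step, chosen after its values were seen, fell, with 12.36, 21.3 and 14.2 FPKM in the 3-year stem, against 47.3, 52.0 and 54.3 FPKM in the shoot (log2 change -1.11 ± 0.22, adjusted p = 0.00397). MVD2 (PH02Gene06879), the decarboxylase of the last step, also fell, with 2.95, 2.81 and 4.15 FPKM in the 3-year stem, against 27.1, 26.0 and 15.6 FPKM in the shoot (log2 change -2.21 ± 0.34, adjusted p = 0.00109). HMGS was high in all stem libraries, with shoot library 3 close below, and HMGR and MVD2 were high in all shoot libraries. The summed level of the pathway was 233, 259.9 and 246 FPKM in the 3-year stem libraries, against 393, 394 and 398 FPKM in the shoot libraries.

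Among prenyl diphosphate synthases, which join the units into chains, calls were near the shares of all genes. Of 17 tested synthases and isomerases 5 rose (29.4%) and 4 fell (23.5%), beside 27.9% and 31.3% of all genes, the falls being 2 without stem library 1. The median was 0.54, or -0.01 on the FPKM scale, where the sign turned and limma called 3 higher and 5 lower. FPS (PH02Gene06534), a farnesyl pyrophosphate synthase, which makes the precursor of sesquiterpenes and sterols, had 484, 422 and 466 FPKM in the 3-year stem, against 55.6, 15.8 and 58.3 FPKM in the shoot (log2 change 4.01 ± 0.49, adjusted p = 0.000433). A second FPS gene (PH02Gene34705) moved the other way, with 4.68, 7.11 and 4.24 FPKM in the 3-year stem, against 43.9, 61.9 and 23.3 FPKM in the shoot (log2 change -2.46 ± 0.41, adjusted p = 0.00171). GGPS (PH02Gene17903), geranylgeranyl pyrophosphate synthase, which feeds carotenoids, chlorophyll and diterpenes, had 84.2, 122 and 95.5 FPKM in the 3-year stem, against 14.1, 2.06 and 12.38 FPKM in the shoot (log2 change 3.99 ± 0.63, adjusted p = 0.00129); it was chosen after its values were seen. The groups did not overlap in the 3 genes, and shoot library 2 was the lowest library in FPS (PH02Gene06534) and in GGPS. The list summed to 671, 661 and 663 FPKM in the 3-year stem libraries, against 287, 216 and 293 FPKM in the shoot libraries.

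Of 50 genes described as terpene synthases, 10 passed the filter on low levels. Of these 1 rose (10%) and 1 fell (10%), beside 27.9% and 31.3% of all genes. Without shoot library 3 the rises were 5. TPS7 (PH02Gene05612), described as an (S)-beta-bisabolene synthase, which forms a sesquiterpene, had 39.6, 5.76 and 47.0 FPKM in the 3-year stem, against 0, 0.138 and 0.363 FPKM in the shoot (log2 change 8.05 ± 1.13, adjusted p = 0.000765). Stem library 2 was the lowest stem library but above all shoot libraries. TPS23 (PH02Gene31515), described as zingiberene synthase-like, fell, with 1.28, 0.325 and 1.11 FPKM in the 3-year stem, against 6.04, 4.55 and 11.95 FPKM in the shoot (log2 change -2.41 ± 0.57, adjusted p = 0.00803). TPS2 (PH02Gene40249), described as a (-)-germacrene D synthase, had 9.05, 13.2 and 6.71 FPKM in the 3-year stem, against 1.86, 0.571 and 16.9 FPKM in the shoot (log2 change 1.22 ± 0.99, adjusted p = 0.317), and a further TPS2 gene (MSTRG.49967) had 15.8, 33.7 and 13.8 FPKM in the 3-year stem, against 6.07, 1.95 and 21.4 FPKM in the shoot (log2 change 1.70 ± 0.74, adjusted p = 0.0827). Shoot library 3 overlapped with the stem in both, and without it they passed the test (log2 change 3.46, adjusted p = 0.000934, and log2 change 2.83, adjusted p = 0.00419), in ranges of 0.000934 to 0.584 and 0.00419 to 0.247 over the 16 alternatives. Outside the word list, a gene with the symbol TPS7 (MSTRG.15384), described as tau-cadinol synthase-like, was listed at 0 in the 3 stem libraries and had 36.4, 6.04 and 3.40 FPKM in the shoot, and was at least 117-fold lower in the 3-year stem (adjusted p = 0.00937). The TPS2 genes and MSTRG.15384 were chosen after their values were seen. Summed over the list, terpene synthases reached 85.1, 83.9 and 83.6 FPKM in the 3-year stem libraries, against 22.8, 19.2 and 99.8 FPKM in the shoot libraries, so the stem libraries were above shoot libraries 1 and 2 and below shoot library 3.

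Most tested photosynthesis genes fell in the 3-year stem. Of 45 tested light harvesting and photosystem genes 28 fell (62.2%) and none rose, 1 rose without shoot library 3, and the median was -2.36. CAB1 (PH02Gene35533), a chlorophyll-binding antenna protein and the most abundant of the list, had 0.381, 1.38 and 0.954 FPKM in the 3-year stem, against 104, 50.5 and 144 FPKM in the shoot (log2 change -6.21 ± 0.55, adjusted p = 0.000131). PSBR (PH02Gene08265), a photosystem II subunit, had 1.15, 0.324 and 0.469 FPKM in the 3-year stem, against 19.0, 71.5 and 194 FPKM in the shoot (log2 change -6.48 ± 0.97, adjusted p = 0.00102). Shoot library 3 was the highest in both and the stem libraries were at or near 1 FPKM. Summed, the list reached 124, 196 and 95.9 FPKM in the 3-year stem libraries, against 614, 393 and 1579 FPKM in the shoot libraries. Of 10 tested genes of carbon fixation 5 fell (50%, against 31.3% of all genes) and none rose, and 8 fell without shoot library 2.

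Among starch genes the calls were near the shares of all genes, and among sugar genes rises were above that share. BAMY2 (PH02Gene11050), a plastid beta-amylase, which releases maltose from starch, had 682, 675 and 576 FPKM in the 3-year stem, against 7.39, 1.82 and 16.6 FPKM in the shoot (log2 change 6.84 ± 0.79, adjusted p = 0.000338). AGPL4 (PH02Gene17166), a subunit of the enzyme that makes ADP-glucose for starch, had 0.446, 0.963 and 0.871 FPKM in the 3-year stem, against 17.7, 20.4 and 13.5 FPKM in the shoot (log2 change -3.94 ± 0.38, adjusted p = 0.000168). BAMY2 was high in all stem libraries and AGPL4 in all shoot libraries. Over the 74 tested starch genes 21 rose (28.4%) and 24 fell (32.4%), near the 27.9% and 31.3% of all genes (median -0.13; limma called 16 higher and 33 lower). Of 73 tested genes of sucrose metabolism and sugar transport 32 rose (43.8%) and 16 fell (median 0.63), and limma called 28 higher and 22 lower. SUS1 (PH02Gene04423), sucrose synthase, which opens sucrose for wall and starch synthesis, had 159.9, 125 and 149 FPKM in the 3-year stem, against 1027, 1320.3 and 558 FPKM in the shoot (log2 change -2.17 ± 0.39, adjusted p = 0.00241). MST4 (PH02Gene36491), a monosaccharide transporter, had 73.6, 44.3 and 80.3 FPKM in the 3-year stem, against 0.11, 0.072 and 1.77 FPKM in the shoot (log2 change 7.27 ± 0.93, adjusted p = 0.00052). SWEET16 (PH02Gene41640), of a family of sugar transporters, chosen after its values were seen, had 117, 183 and 129.7 FPKM in the 3-year stem, against 9.95, 11.99 and 45.5 FPKM in the shoot (log2 change 3.28 ± 0.58, adjusted p = 0.0021). Among these, sucrose synthase was high in all shoot libraries and both transporters were high in all stem libraries.

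Genes of desiccation tolerance were among the most abundant of the 3-year stem. Of 17 tested late embryogenesis abundant (LEA) proteins, dehydrins and abscisic stress-ripening proteins, which protect cells that lose water, 14 rose (82.4%) and none fell, with a median of 4.19. COR410 (PH02Gene13412), a dehydrin, had 1893, 3396 and 2833 FPKM in the 3-year stem, against 123, 99.0 and 283 FPKM in the shoot (log2 change 4.61 ± 0.50, adjusted p = 0.000262). DHN1 (PH02Gene01531), another dehydrin, had 1363, 2373 and 1838 FPKM in the 3-year stem, against 291, 251 and 249 FPKM in the shoot (log2 change 3.39 ± 0.31, adjusted p = 0.000142). The abscisic stress-ripening gene PH02Gene20470 had 147, 478.8 and 202 FPKM in the 3-year stem, against 0.111, 0.293 and 0.258 FPKM in the shoot (log2 change 10.77 ± 0.68, adjusted p = 5.31e-05). All stem libraries were above all shoot libraries, and stem library 2 was the highest in all 3 genes. LEA14-A (PH02Gene27068) had 321, 454 and 474 FPKM in the 3-year stem, against 55.1, 14.5 and 33.9 FPKM in the shoot (log2 change 4.19 ± 0.51, adjusted p = 0.00041), and a further abscisic stress-ripening gene (PH02Gene34041) had 317, 586 and 525 FPKM in the 3-year stem, against 4.14, 6.80 and 16.4 FPKM in the shoot (log2 change 6.31 ± 0.59, adjusted p = 0.000154); both were chosen after their values were seen. All stem libraries were above all shoot libraries in them. The list summed to 4677, 8756 and 6739 FPKM in the 3-year stem libraries, against 679, 618 and 1271 FPKM in the shoot libraries.

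Genes of abscisic acid, the hormone of drought response and dormancy, rose more often than they fell. Of 43 tested genes of its synthesis and signalling 23 rose (53.5%) and 5 fell, with a median of 1.73. On the side of synthesis, NCED3 (PH02Gene32841), a carotenoid cleavage enzyme like NCED4, had 269, 236 and 192 FPKM in the 3-year stem, against 1.23, 1.09 and 9.30 FPKM in the shoot (log2 change 6.53 ± 0.90, adjusted p = 0.000706). On the side of signalling, SAPK2 (PH02Gene40734), of the SnRK2 kinase family with members in abscisic acid signalling, had 955, 982 and 981 FPKM in the 3-year stem, against 59.1, 37.3 and 53.9 FPKM in the shoot (log2 change 4.87 ± 0.29, adjusted p = 4.93e-05). SAPK10 (PH02Gene10453), of the same kinase family and chosen after its values were seen, had 169, 271 and 236 FPKM in the 3-year stem, against 30.9, 21.7 and 15.6 FPKM in the shoot (log2 change 3.88 ± 0.35, adjusted p = 0.000142). The 3 stem libraries of SAPK2 differed little from each other, and no shoot library came near them. A receptor gene, PYL10 (PH02Gene33954), fell, with 0.402, 0.53 and 0.144 FPKM in the 3-year stem, against 17.7, 16.4 and 7.01 FPKM in the shoot (log2 change -4.63 ± 0.60, adjusted p = 0.000558). Its groups did not overlap.

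Jasmonate genes, of wound and defence signalling, rose in 33 of 52 tested (63.5%) and fell in 9, with a median of 2.44. CM-LOX2 (PH02Gene47636), a plastid lipoxygenase, the type of enzyme that starts jasmonate synthesis, had 119, 59.4 and 133 FPKM in the 3-year stem, against 0.095, 0.094 and 1.24 FPKM in the shoot (log2 change 8.40 ± 1.03, adjusted p = 0.000435). CYP74A1 (PH02Gene20989), allene oxide synthase of the next step, had 159, 76.3 and 131 FPKM in the 3-year stem, against 3.38, 1.79 and 5.67 FPKM in the shoot (log2 change 5.69 ± 0.52, adjusted p = 0.00014). TIFY11B (PH02Gene05499), of the JAZ repressors that jasmonate induces, had 154, 97.8 and 172 FPKM in the 3-year stem, against 0, 0.186 and 2.13 FPKM in the shoot (log2 change 8.11 ± 0.87, adjusted p = 0.000257). The stem was high in all 3 libraries of each, with stem library 2 the lowest, and CM-LOX2 and CYP74A1 were chosen after their values were seen. A 12-oxophytodienoate reductase, OPR12 (PH02Gene14821), fell, with 0.803, 1.16 and 1.15 FPKM in the 3-year stem, against 16.3, 34.4 and 28.0 FPKM in the shoot (log2 change -4.08 ± 0.40, adjusted p = 0.000177). For ethylene, the gas hormone of ripening and senescence, 23 of 38 tested genes rose (60.5%) and 7 fell (18.4%, median 1.54). Of all genes 27.9% rose and 31.3% fell. ACO (PH02Gene02494), the oxidase that releases ethylene, had 114, 230.0 and 87.7 FPKM in the 3-year stem, against 1.64, 2.64 and 10.6 FPKM in the shoot (log2 change 5.45 ± 0.76, adjusted p = 0.00074). Its stem libraries were all above its shoot libraries.

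The growth hormones gave a mixed picture. Of 97 tested genes of auxin transport and response 52 fell (53.6%) and 20 rose (median -0.99). GH3.8 (PH02Gene48836), which conjugates auxin to amino acids, rose, with 275, 169 and 191 FPKM in the 3-year stem, against 1.66, 0.445 and 0.822 FPKM in the shoot (log2 change 8.32 ± 0.57, adjusted p = 6.23e-05). ARF12 (PH02Gene43144), an auxin response factor, fell, with 0.863, 0.856 and 1.04 FPKM in the 3-year stem, against 109, 67.2 and 81.2 FPKM in the shoot (log2 change -5.95 ± 0.30, adjusted p = 3.83e-05). Both were without overlap. Of the 44 tested auxin response factors 26 fell (59.1%, against 31.3% of all genes) and 7 rose (15.9%). The rises were 4 without stem library 3, and limma called 3 higher and 31 lower. Of 59 tested cytokinin genes 19 rose (32.2%) and 12 fell (20.3%), beside 27.9% and 31.3% of all genes. Rises were thus near that share and falls below it. Their median was 0.07, or -0.35 on the FPKM scale, where the sign turned and limma called 18 higher and 21 lower. CKX5 (PH02Gene00699), which degrades cytokinin, had 155, 70.9 and 77.6 FPKM in the 3-year stem, against 0.511, 0.281 and 2.42 FPKM in the shoot (log2 change 7.18 ± 0.81, adjusted p = 0.000304). RR1 (PH02Gene14808), a response regulator that receives the cytokinin signal, had 0.2, 0.132 and 0.501 FPKM in the 3-year stem, against 24.4, 21.8 and 26.9 FPKM in the shoot (log2 change -5.88 ± 0.44, adjusted p = 8.17e-05). The degrading enzyme was thus high in the stem and the regulator in the shoot. CKX5 and RR1 were named as the largest rise and the largest fall of this list.

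Gibberellin drives elongation of internodes. Of its 25 tested genes 11 rose (44%) and 11 fell (44%), beside 27.9% and 31.3% of all genes. Their median was 0.46, or -0.05 on the FPKM scale, where the sign turned. GA3ox2-2 (PH02Gene43670), the oxidase that makes active gibberellin, was listed at 0 in the 3 stem libraries and had 3.03, 4.67 and 3.42 FPKM in the shoot, and was at least 75.9-fold lower in the 3-year stem (adjusted p = 0.000448). GA2OX3 (PH02Gene00807), which inactivates gibberellin, had 3.79, 2.97 and 3.83 FPKM in the 3-year stem, against 0, 0 and 0.192 FPKM in the shoot (56.3-fold higher per total count, 95% counting interval 18.9 to 276, from 3 counts in all in the shoot, adjusted p = 0.000566). Both were chosen after their values were seen, both were at low levels, and neither had overlapping groups. CIGR1 (PH02Gene44779), a GRAS protein induced by chitin and gibberellin in rice and the most abundant of the list, had 923, 731 and 1069.8 FPKM in the 3-year stem, against 26.2, 18.7 and 31.2 FPKM in the shoot (log2 change 5.77 ± 0.35, adjusted p = 5.15e-05). Its stem libraries were far above its shoot libraries.

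Most tested members of 3 families of stress-related transcription factors rose. Of 96 tested WRKY genes, of defence and senescence, 71 rose (74%, against 27.9% of all genes) and 10 fell, with a median of 4.05. AP2-EREBP factors, which include ethylene and cold response factors, rose in 79 of 118 (66.9%) and fell in 19 (median 3.04). NAC factors, of senescence, stress and wall formation, rose in 66 of 104 (63.5%) and fell in 20 (median 2.27). WRKY71 (PH02Gene30731), the most abundant WRKY gene, had 444, 371 and 587 FPKM in the 3-year stem, against 6.87, 4.90 and 21.2 FPKM in the shoot (log2 change 6.04 ± 0.63, adjusted p = 0.000232). WRKY41 (PH02Gene19350), chosen after its values were seen, had 301, 205 and 484 FPKM in the 3-year stem, against 1.77, 1.46 and 5.27 FPKM in the shoot (log2 change 7.49 ± 0.66, adjusted p = 0.000133). NAM-B1 (PH02Gene19280), named after the wheat gene that speeds leaf senescence, had 88.1, 85.3 and 101.1 FPKM in the 3-year stem, against 0.078, 0.103 and 0.542 FPKM in the shoot (log2 change 9.14 ± 0.59, adjusted p = 5.48e-05). The groups were far apart in the 3 genes. NAC048 (PH02Gene10707), chosen after its values were seen, had 302, 198 and 232 FPKM in the 3-year stem, against 2.41, 1.44 and 5.64 FPKM in the shoot (log2 change 6.88 ± 0.55, adjusted p = 9.61e-05). It too was high in all stem libraries.

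Genes that fell in the NAC, MYB and WRKY families included some with the symbols of known regulators of the secondary wall. NAC073 (PH02Gene22932), the family member that in Arabidopsis acts in secondary wall formation, had 0, 0.116 and 0.063 FPKM in the 3-year stem, against 13.4, 12.7 and 46.2 FPKM in the shoot (447-fold lower per total count, 95% counting interval 153 to 2170.2, from 3 counts in all in the 3-year stem, adjusted p = 0.000281). MYB61 (PH02Gene04302), with the symbol of a gene that in rice acts on cellulose synthesis but described as a MYB3 transcription factor, had 0.073, 0.048 and 0.052 FPKM in the 3-year stem, against 40.2, 39.0 and 38.0 FPKM in the shoot (log2 change -8.68 ± 0.29, adjusted p = 3.26e-05). WRKY12 (PH02Gene38989), which in Arabidopsis represses secondary walls in pith, was listed at 0 in the 3 stem libraries and had 10.1, 3.43 and 1.77 FPKM in the shoot, and was at least 61.5-fold lower in the 3-year stem (adjusted p = 0.00504). The shoot libraries were above the stem libraries in each, and in MYB61 the 3 shoot libraries were close together. In the 0.5-year stem, where the summed secondary wall cellulose synthases were highest, NAC073 had a mean of 14.5 FPKM. MYB61 and WRKY12 were already low there, with means of 0.27 and 0.31 FPKM. Of the tested MYB genes 37 rose (36.6%) and 32 fell (31.7%, median 0.47, or -0.07 on the FPKM scale, where the sign turned). Of 95 tested bZIP genes 42 rose (44.2%) and 18 fell (18.9%, median 0.97), and limma called 37 higher and 32 lower. Of 119 bHLH genes 48 rose (40.3%) and 52 fell (43.7%, median 0.08, or -0.40 on the FPKM scale, where the sign turned). The shares of all genes were 27.9% and 31.3%. BZIP23 (PH02Gene02526), a bZIP factor of abscisic acid and drought response in rice, had 259, 356 and 266 FPKM in the 3-year stem, against 14.1, 1.52 and 29.4 FPKM in the shoot (log2 change 4.91 ± 0.89, adjusted p = 0.00243). All its stem libraries were above all its shoot libraries.

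Among HSP70, HSP90 and HSP100 chaperones, falls were near the share of all genes and rises below it. Of 6 small heat shock proteins that passed the filter, of 44 in the table, 3 fell (50%, against 31.3% of all genes) and none rose. HSP16.9C (PH02Gene22220), the most abundant, had 21.1, 29.9 and 9.23 FPKM in the 3-year stem, against 102, 79.5 and 248 FPKM in the shoot (log2 change -2.24 ± 0.51, adjusted p = 0.00706). Of 44 tested HSP70, HSP90 and HSP100 chaperones 9 rose (20.5%) and 13 fell (29.5%), beside 27.9% and 31.3% of all genes. Their median was -0.14, and limma called 7 higher and 24 lower. HSP70 (PH02Gene00168) had 1345, 1116 and 1555 FPKM in the 3-year stem, against 122, 150.2 and 85.1 FPKM in the shoot (log2 change 4.07 ± 0.38, adjusted p = 0.000154). Another HSP70 gene (PH02Gene35944) had 475, 539 and 505 FPKM in the 3-year stem, against 1065, 1149.8 and 834 FPKM in the shoot and was not called (log2 change -0.43 ± 0.26, adjusted p = 0.19), with an adjusted p of 0.0475 without shoot library 3 and of 0.0157 to 0.353 over the 16 alternatives. The first was therefore high in the stem and the other above the stem in all shoot libraries. CLPD1 (PH02Gene05704), a plastid HSP100 chaperone, had 532, 310.2 and 453 FPKM in the 3-year stem, against 11.01, 5.29 and 29.9 FPKM in the shoot (log2 change 5.44 ± 0.68, adjusted p = 0.00047). Of 32 tested heat stress transcription factors 15 rose (46.9%) and 5 fell (15.6%, median 1.29), and limma called 13 higher and 9 lower.

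Falls in the transporter lists were near the share of all genes, and single members of a family changed in opposite directions. Of 25 tested aquaporins, the water channels, 9 rose (36%) and 8 fell (32%), beside 27.9% and 31.3% of all genes. Their median was 0.26, or -0.28 on the FPKM scale, where the sign turned and limma called 7 higher and 10 lower. PIP2-1 (PH02Gene19725), of the plasma membrane, had 380.0, 695 and 525 FPKM in the 3-year stem, against 127, 159 and 139 FPKM in the shoot (log2 change 2.49 ± 0.28, adjusted p = 0.000322). PIP1-2 (PH02Gene26718), of the same membrane, had 1.36, 0.736 and 0.798 FPKM in the 3-year stem, against 113, 243 and 90 FPKM in the shoot (log2 change -6.66 ± 0.56, adjusted p = 0.000114). One was thus higher in all stem libraries and the other in all shoot libraries. The potassium channel gene Os02g0245800 (PH02Gene29711), described as KAT1, had 321, 265 and 270.2 FPKM in the 3-year stem, against 3.63, 1.94 and 3.13 FPKM in the shoot (log2 change 7.21 ± 0.34, adjusted p = 3.44e-05). Of 54 tested potassium and phosphate transporters 25 rose (46.3%) and 18 fell (33.3%, median 0.83). ABCG44 (PH02Gene19353), an ABC transporter, had 369, 228 and 364 FPKM in the 3-year stem, against 2.20, 2.41 and 9.80 FPKM in the shoot (log2 change 6.69 ± 0.73, adjusted p = 0.000264), while ABCB19 (PH02Gene02211), of the type that carries auxin in Arabidopsis, had 0.061, 0.189 and 0.029 FPKM in the 3-year stem, against 92.0, 54.5 and 35.9 FPKM in the shoot (log2 change -8.77 ± 0.65, adjusted p = 7.81e-05). Of 120 tested ABC transporters 52 rose (43.3%) and 40 fell (33.3%, median -0.07), and limma called 40 higher and 47 lower.

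Nitrogen genes were called about as often as all genes, and single members changed strongly. AS (PH02Gene03391), asparagine synthetase, was listed at 0 in the 3 stem libraries and had 67.2, 93.4 and 14.1 FPKM in the shoot, and was at least 1397-fold lower in the 3-year stem (adjusted p = 0.00108). Glutamate synthase Os01g0681900 (PH02Gene36458) had 585, 524 and 598 FPKM in the 3-year stem, against 124, 73.7 and 89.5 FPKM in the shoot (log2 change 3.16 ± 0.32, adjusted p = 0.000206). Over the 98 tested nitrogen genes 33 rose (33.7%) and 32 fell (32.7%), beside 27.9% and 31.3% of all genes (median -0.10). Of 33 tested flavonoid genes 14 rose (42.4%) and 7 fell (median 0.88). F3H-2 (PH02Gene00618), a flavanone dioxygenase, had 28.1, 116 and 123 FPKM in the 3-year stem, against 0.084, 0 and 0.292 FPKM in the shoot (log2 change 9.87 ± 0.91, adjusted p = 0.000148). Stem library 1 was the lowest stem library and far above the shoot. GST1 (PH02Gene00763), a glutathione S-transferase and 1 of the 8 most abundant genes of the shoot, had 55.8, 53.9 and 43.1 FPKM in the 3-year stem, against 2746, 1667 and 1504 FPKM in the shoot (log2 change -4.70 ± 0.35, adjusted p = 8.14e-05). Of 62 tested genes of that family 14 rose (22.6%) and 20 fell (32.3%, median -0.03), and limma called 11 higher and 26 lower. Of 128 tested chitinases, glucanases and pathogenesis-related proteins 37 rose (28.9%) and 62 fell (48.4%, median -0.76). Beside 27.9% and 31.3% of all genes, rises in the latter list were near that share and falls above it.

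How genes of respiration, aminoacyl-tRNA synthesis and splicing split also depended on the scale. Of 176 tested genes of oxidative phosphorylation, the respiratory chain and ATP synthase, 30 rose (17.0%) and 40 fell (22.7%, median -0.15). The falls were 23 without stem library 3 and 24 without shoot library 1, while limma called 17 higher and 88 lower. Genes of aminoacyl-tRNA synthesis, which loads amino acids for translation, rose in 10 of 83 and fell in 29 (median -0.25), the falls being 17 without stem library 3, while limma called 5 higher and 53 lower. Of 345 tested spliceosome genes 68 rose (19.7%) and 69 fell (20%, median -0.07), the falls being 44 without stem library 3, while limma called 30 higher and 174 lower. Of all genes 27.9% rose and 31.3% fell, with a median of -0.08, so respiration and spliceosome genes were called less often than all genes. Cellulose synthase-like genes, of the hemicelluloses, rose in 4 of 14 (28.6%) and fell in 2 (14.3%). The falls were 1 without any 1 of the stem libraries or without shoot library 2. Of 7 tested metallothioneins 3 rose (42.9%) and 2 fell (28.6%). Of 38 cysteine proteases and vacuolar processing enzymes 9 rose (23.7%) and 12 fell (31.6%, median -0.16), and limma called 8 higher and 18 lower.

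Most of the 8 most abundant genes of each group differed between the groups. Among the 8 highest in each group, HSP70 (PH02Gene00168), COR410, DHN1 and UBC28 of the stem and GST1, SUS1 and HSP70 (PH02Gene35944) of the shoot are given above. MT3B (MSTRG.21416), a metallothionein, a small metal-binding protein, was among the highest in the stem, with 2674, 2443 and 1565 FPKM in the 3-year stem, against 50.4, 50.2 and 130 FPKM in the shoot (log2 change 5.46 ± 0.48, adjusted p = 0.000128). ERD4 (PH02Gene09632), named after an early dehydration gene of Arabidopsis, had 1152, 1961 and 2206 FPKM in the 3-year stem, against 19.8, 42.0 and 63.9 FPKM in the shoot (log2 change 6.004 ± 0.57, adjusted p = 0.000166). TUBA1 (PH02Gene12444), an alpha-tubulin, had the highest mean of the shoot, with 296, 289 and 276 FPKM in the 3-year stem, against 2522, 3628 and 1661 FPKM in the shoot (log2 change -2.62 ± 0.38, adjusted p = 0.000864). In MT3B, ERD4 and TUBA1 the groups did not overlap. They did overlap in 3 others of these sets: R40C1 (PH02Gene15920), a lectin of the shoot's set, had 316, 669 and 369 FPKM in the 3-year stem, against 1869.6, 768 and 587 FPKM in the shoot (log2 change -0.69 ± 0.50, adjusted p = 0.259). PH02Gene36478 of the same set, which has no description, had 724, 1054 and 561 FPKM in the 3-year stem, against 1479, 2026 and 939 FPKM in the shoot (log2 change -0.37 ± 0.37, adjusted p = 0.408). ARF (MSTRG.58897), an ADP-ribosylation factor of the stem's set, was called, with 957, 1537 and 1104 FPKM in the 3-year stem, against 598, 965 and 888 FPKM in the shoot (log2 change 1.13 ± 0.30, adjusted p = 0.0125), but not with limma at either pseudocount nor without shoot library 1, with an adjusted p of 0.00048 to 0.225 over the 16 alternatives. MT2C (MSTRG.57476), another metallothionein, was high in shoot library 1, with 48.9, 29.5 and 16.1 FPKM in the 3-year stem, against 2459.9, 391 and 355 FPKM in the shoot (log2 change -4.53 ± 0.92, adjusted p = 0.00397). Early nodulin-93 genes, a small family first found in soybean nodules, rose in 7 of 10 tested (70%, against 27.9% of all genes) and fell in none (median 4.72). PH02Gene12978 among them had 441, 352 and 184 FPKM in the 3-year stem, against 2.89, 1.47 and 1.80 FPKM in the shoot (log2 change 7.85 ± 0.48, adjusted p = 5.01e-05). Stem library 3 was its lowest stem library.

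Genes in common use as references for expression also differed. Of 61 tested actins, tubulins, ubiquitins, elongation factors and cytosolic glyceraldehyde-3-phosphate dehydrogenases 14 rose (23.0%) and 29 fell (47.5%), beside 27.9% and 31.3% of all genes. Their median was -0.78, and limma called 11 higher and 38 lower. ACT7 (PH02Gene24788), described as actin-1, had 435, 701 and 576 FPKM in the 3-year stem, against 1.61, 2.88 and 11.2 FPKM in the shoot (log2 change 7.39 ± 0.80, adjusted p = 0.000263). ACT2 (PH02Gene21411) had 475, 661 and 726 FPKM in the 3-year stem, against 178, 258 and 93.8 FPKM in the shoot (log2 change 2.38 ± 0.42, adjusted p = 0.00225), and GAPC3 (PH02Gene14009), a cytosolic glyceraldehyde-3-phosphate dehydrogenase, had 357, 281 and 257 FPKM in the 3-year stem, against 80.6, 84.9 and 30.3 FPKM in the shoot (log2 change 2.75 ± 0.44, adjusted p = 0.00143); both were chosen after their values were seen. In the 3 genes all stem libraries were above all shoot libraries, while the tubulins named above lay the other way.

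Levels of root, seed and epidermis lists are given next, but no root or seed library was compared, so they cannot check the labels. Of 10 tested genes of root endodermis and silicon uptake 4 rose (40%) and 4 fell (40%), beside 27.9% and 31.3% of all genes. They summed to 282, 345 and 444 FPKM in the 3-year stem libraries, against 259.8, 207 and 318 FPKM in the shoot libraries. Of 5 seed storage genes that passed the filter 2 rose (40%) and 2 fell (40%), and they summed to 203, 108 and 134 FPKM in the 3-year stem libraries, against 234, 222 and 145 FPKM in the shoot libraries. The rises were 1 without stem library 1 or 3 or shoot library 1, and the falls were 1 without stem library 2 or 3, and limma called 1 higher and 2 lower. Of 50 tested cuticle and wax genes of the epidermis 23 fell (46%) and 9 rose (18%, median -1.41). They summed to 488, 406 and 449.5 FPKM in the 3-year stem libraries, against 550.0, 581 and 813 FPKM in the shoot libraries. The part that a different share of epidermis has in the other changes was not tested. LSI3 (PH02Gene03618), described as a silicon efflux transporter, was the most abundant of the root list, with 145, 223 and 273 FPKM in the 3-year stem, against 124, 54.6 and 115 FPKM in the shoot (log2 change 1.73 ± 0.38, adjusted p = 0.00598). It was thus present in every library of both groups. NIP2-1 (PH02Gene06447), an aquaporin, rose most in the root list, with 28.0, 14.1 and 25.3 FPKM in the 3-year stem, against 0.079, 0.104 and 0.367 FPKM in the shoot (log2 change 7.45 ± 0.57, adjusted p = 8.51e-05). LSI2 (PH02Gene10913), a gene with the same description as LSI3, fell most, with 0.402, 0.612 and 0.133 FPKM in the 3-year stem, against 4.53, 12.9 and 13.9 FPKM in the shoot (log2 change -4.17 ± 0.61, adjusted p = 0.000898).

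**Figure D3:**
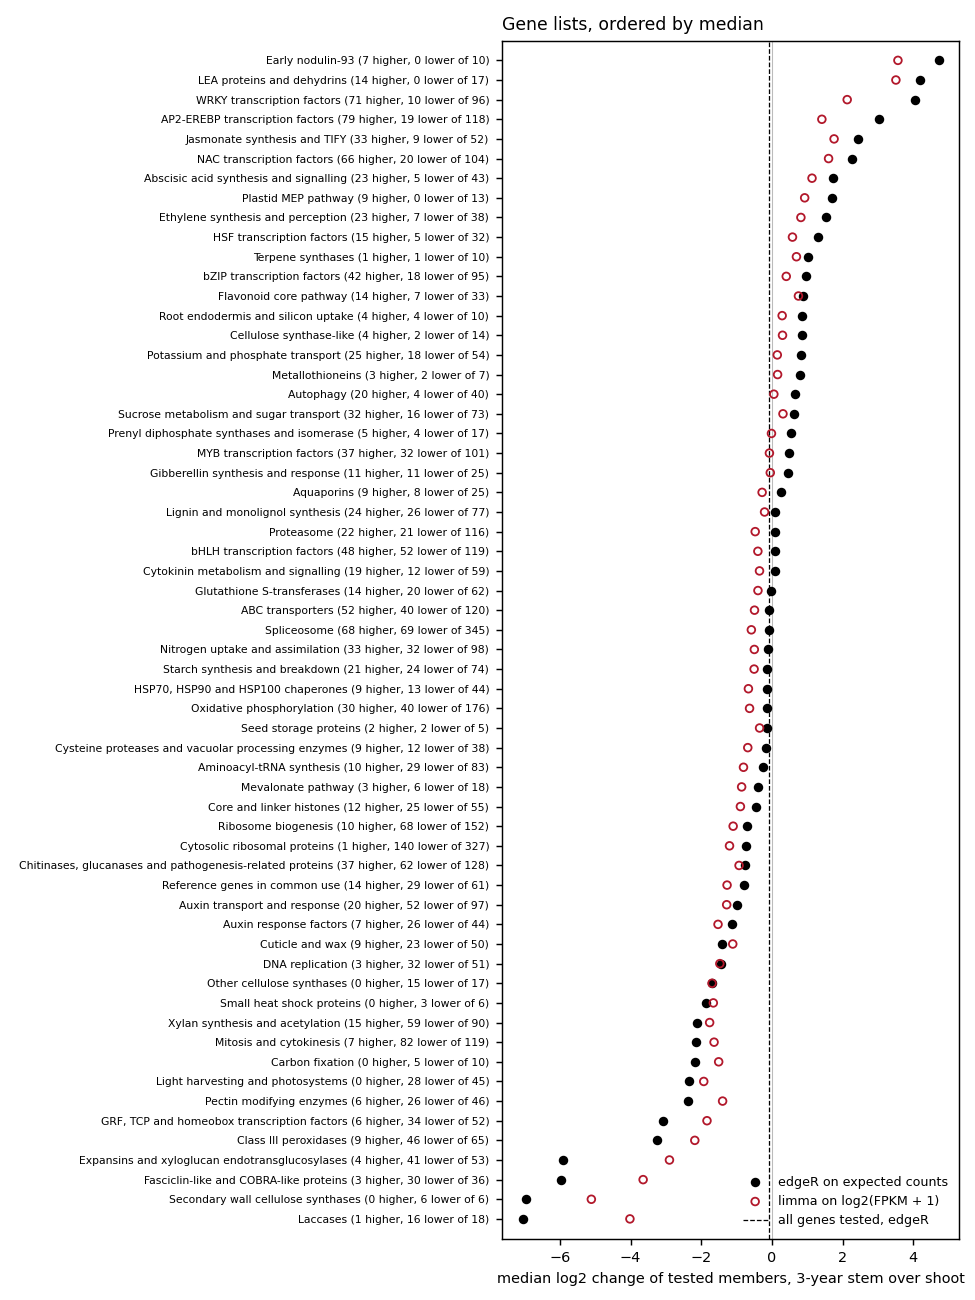
Median log2 change (3-year stem over shoot) of the tested members of each of the 60 gene lists, with the counts called higher and lower. Black points are edgeR on expected counts, with genes at 0 counts at their bound, open red points are limma on log2(FPKM + 1), and the dashed line is the edgeR median of all genes tested (-0.08); the lists run from early nodulin-93 at the top to laccases at the bottom.

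The levels of the intermediate stems place these differences along the age of the culm. Summed over the list, mitosis genes spanned 1966 to 2339 FPKM in the shoot, 1133 to 1169.8 at 0.5 years, 649 to 784 at 1 year, 774 to 852 at 2 years and 713 to 723 at 3 years, with the ranges at 1, 2 and 3 years far below that of the shoot. Expansins and xyloglucan endotransglucosylases spanned 1101 to 2167 FPKM in the shoot, 557 to 625 at 0.5 years, 293 to 321 at 1 year, 332 to 357 at 2 years and 295 to 435 at 3 years. Secondary wall cellulose synthases spanned 211 to 673 FPKM in the shoot, 878 to 897 at 0.5 years, 24.2 to 202 at 1 year, 2.20 to 132 at 2 years and 1.48 to 5.05 at 3 years. Those cellulose synthases were thus highest at 0.5 years, above both ends compared here, and 2 of the 3 libraries at 2 years were as low as the 3-year stem while the other was not. Terpene synthases also peaked at 0.5 years, with 19.2 to 99.8 FPKM in the shoot, 576 to 663 at 0.5 years, 118 to 230.2 at 1 year, 58.9 to 143 at 2 years and 83.6 to 85.1 at 3 years. LEA proteins and dehydrins spanned 618 to 1271 FPKM in the shoot, 1781 to 1941 at 0.5 years, 2601 to 2926 at 1 year, 4396 to 6499 at 2 years and 4677 to 8756 at 3 years. Abscisic acid genes spanned 450.2 to 796 FPKM in the shoot, 1428 to 1507 at 0.5 years, 1975 to 2410.5 at 1 year, 2185 to 2755 at 2 years and 2537 to 3015 at 3 years. Both of these lists had their lowest levels in the shoot, and their ranges at 2 and 3 years overlapped. The MEP pathway spanned 139 to 281 FPKM in the shoot, 339 to 354 at 0.5 years, 377 to 580.3 at 1 year, 375 to 530.3 at 2 years and 503 to 595 at 3 years, with overlapping ranges from 1 year on. No test was made between these stages.

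**Figure D4:**
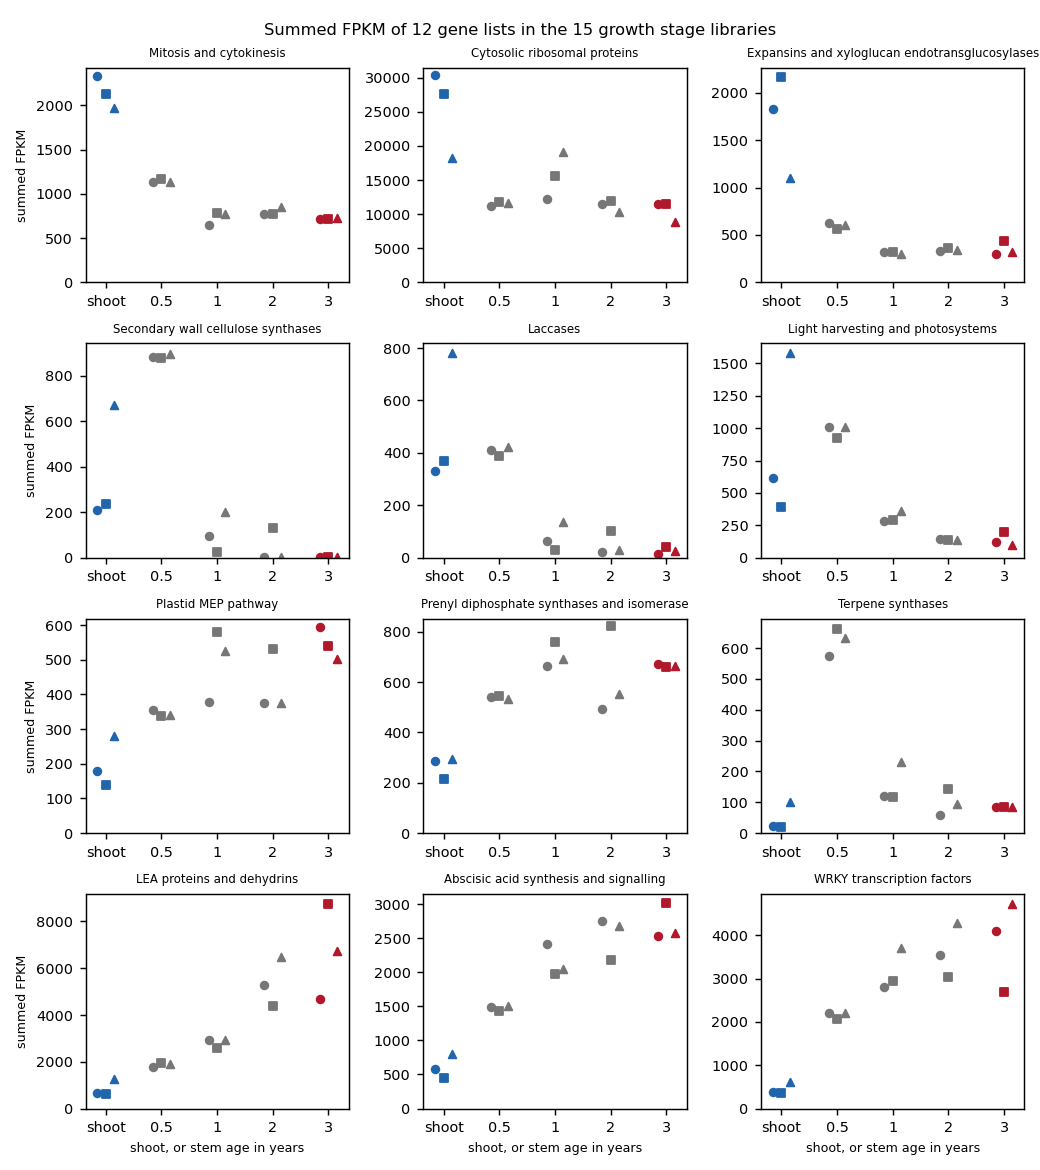
Summed FPKM of 12 gene lists in the 15 libraries of the growth stage set, in the order shoot (blue), stems of 0.5, 1 and 2 years (grey) and 3 years (red), with marker shapes for libraries 1, 2 and 3. Mitosis genes and expansins were highest in the shoot, secondary wall cellulose synthases and terpene synthases at 0.5 years, and LEA proteins at 2 and 3 years.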

How the data were processed

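RNA-seq libraries of 3-year stems and shoots of Chimonocalamus delicatus, 3 each, were taken from a growth stage table of 15 libraries. The authors deposited expected counts per gene and library, which are not scaled to depth, and FPKM values, which are scaled to transcript length and library total, per the file headers. HISAT2, StringTie 1.3.1 and RSEM are named in the submitters' processing notes without their roles, and no genome build is named in what was used here. Expected counts were rounded to whole numbers. A gene entered the test if it reached 1 FPKM in 3 or more of the 6 libraries, which left out 28733 genes. Counts were scaled with TMM and tested with edgeR 4.0.16 in R 4.3.3 (quasi-likelihood test, Benjamini-Hochberg adjustment, threshold 0.05) on the 6 libraries alone, since the 0.5-year stem had a coefficient of variation of 5.47%. The script was tested on simulated data with 200 changed genes, where it recovered 1% of the 2-fold and 23% of the 4-fold changes. Of its 24 calls there, 0% were false. The data compared here held far more called genes, so these shares may not carry over, but a gene that was not called may still differ. Alternatives used DESeq2 1.42.0, limma 3.58.1 on log2(FPKM + 1) and on log2(FPKM + 0.1), other scalings, filters and sets of libraries, a replicate block, and each library left out. One voom fit with library weights was added after seeing the data. A gene listed at 0 in a group was given a bound from a floor of 3 counts over the group, and a gene with 1 to 3 counts a ratio with an exact 95% binomial interval; both cover counting error only. Genes were named by rule: the 10 largest rises and 10 largest falls among genes with both a symbol and a functional description whose groups do not overlap, the largest rise, the largest fall and the most abundant member of each of 60 lists, and the 8 most abundant genes of each group. A further 22 genes were chosen after their values were seen. The members of the lists, the lists and the rule were chosen with earlier results of these data known. No sequences were used.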

Additional observations from a re-analysis of the deposited data

How the results depend on the processing

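Under the 16 alternative settings, genes called higher numbered 7611 in the reported fit and 5343 to 8513 elsewhere, and genes called lower 8526 and 5603 to 12608. The count of genes called lower left the range of 1.5 times the reported one once, at 5603, where a mean FPKM of 5 or more was required and fewer genes were tested (17073). With limma on log2(FPKM + 1) the counts were 5592 higher and 12608 lower. Leaving out 1 library gave 6382 to 8171 higher and 7045 to 9170 lower. With the replicate number as a block (replicate block) edgeR called 7578 higher and 8241 lower. Stem and shoot libraries of the same number deviated together only weakly (r = 0.064, 0.068 and 0.080 across genes), though each correlated best with its own number, so the numbers were not taken to pair the libraries. Of the 195 genes reported or chosen by rule, 7 lost their call under at least 1 setting, among them LAC7. No called gene among them changed direction. Uncalled genes near 0 did: CATHB2 (cathepsin B-like) to 0.0087 with the replicate block, 0.070 with voom and -0.1741 to 0.0936 over the libraries left out, RAN1 to 0.0037 with the block and -0.1954 to 0.0689 over the libraries left out, PPA4 to -0.1513 to 0.0593 over the libraries left out, and TBP2 to -0.2655 and -0.2673 with limma; the cause was not tested. Depth limits genes at under 3 counts in a group, where only bounds or wide intervals can be given, and the spread of the shoot libraries limits the calls of small changes.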
